A study of Arabidopsis thaliana with 11 samples.

Results

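The genes described here make or break down galactinol, raffinose and stachyose in Arabidopsis thaliana. The set holds 8 of the 32627 loci on the array, taken by name, and they carry 9 of its 37118 features. They are the galactinol synthase genes GolS1 (AT2G47180), GolS2 (AT1G56600) and GolS3 (AT1G09350), the raffinose synthase gene RS5 (AT5G40390), the stachyose synthase gene STS (AT4G01970, also RS4), and the seed imbibition genes SIP1 (AT1G55740), SIP2 (AT3G57520) and DIN10 (AT5G20250). The gene table gives the symbol SIP1 to both AT1G55740 and AT5G40390. Here SIP1 means AT1G55740, and AT5G40390 is called RS5. SIP2 has 2 features, each other gene has 1, and a feature summarises 3 or 4 probes. All 8 genes had a mean signal above the dimmest 25% of features. The locus names place GolS2, GolS3 and SIP1 on chromosome 1, GolS1 on 2, SIP2 on 3, STS on 4, and RS5 and DIN10 on 5.

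Total RNA came from etiolated hypocotyls, the embryonic stems of dark-grown seedlings, at an age of 96 h, and was hybridised to single-colour NimbleGen arrays of a 12-plex chip. After 3 days at 4 °C in the dark, all seeds were given 6 h of white light at 20 °C, followed by 4 days of darkness. The 6 wild-type arrays (ecotype Columbia) and the 5 arrays of the atpme3-1 loss-of-function mutant, also Columbia, each hold RNA of about 300 pooled hypocotyls, and replicates were collected separately. The mutant is represented by 1 allele, its replicates carry the numbers 1, 2, 3, 5 and 6, and a mutant array with number 4 is not analysed here. PME3 encodes a pectin methylesterase of the cell wall, and the arrays compare the hypocotyl transcripts of a line labelled as lacking it with those of wild type.

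Galactinol synthase joins galactose from UDP-galactose to myo-inositol and so commits carbon to this family of sugars. Raffinose synthase then moves the galactose from galactinol to sucrose, and stachyose synthase adds a further galactose to raffinose. The sugars are known from maturing seeds, which use them up on germination, and from leaves under drought, heat or cold. Alkaline alpha-galactosidases, to which seed imbibition proteins are related, release the galactose again.

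The labels could not be checked by the targeted transcript in a simple way. The PME3 feature was higher on the arrays labelled mutant, at 14.41 ± 0.02 (log2 intensity, SD, n = 5) against 13.81 ± 0.06 in wild type (SD, n = 6), with a limma adjusted p of 4.91e-07. Neither the probe positions nor the site of the lesion is known here, and probes that lie beyond the lesion could not check the label. "Mutant" below therefore means labelled mutant, and every direction rests on that label. Pairwise correlations over features ran from 0.985 to 0.998 within groups and from 0.966 to 0.982 between them. Within the wild type, arrays whose numbers lie 3 apart resembled each other: their deviations from the group mean correlated at 0.18 to 0.69 over features, against -0.81 to 0.04 for the 12 other wild-type pairs. In the mutant these values were 0.03 and 0.07, against -0.63 to 0.15 for the 8 other pairs. Deviations from a group mean cancel out over the group, so such correlations are negative on average even among unrelated arrays. Image names in the file headers place wild-type arrays at odd and mutant arrays at even positions of the chip. A difference between odd and even positions therefore cannot be told apart from the group difference. A part of chip position in the resemblance was not tested. The marker genes of etiolated seedlings PORA, PORB and PHYA had wild-type means of 15.02, 14.59 and 14.51, and PORA and PORB did not pass the test between groups.

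Transcripts of 2 galactinol synthases and of stachyose synthase were higher in the mutant, while those of 2 seed imbibition genes were lower. STS rose most, 4.37-fold, followed by GolS2 at 2.57-fold and GolS1 at 2.25-fold. SIP1 fell 1.58-fold, and SIP2 fell 1.45-fold and 1.66-fold on its 2 features. GolS3, RS5 and DIN10 did not pass the threshold, an adjusted p of 0.05 after Benjamini-Hochberg adjustment over all features. For SIP2, the feature with the higher mean stands for the gene in counts. Of the 8 genes 3 were thus higher and 2 lower, where 19.4% of all genes on the array were higher and 13.1% lower, 32.5% together. With a fold of at least 1.5 added, 3 were higher and 1 lower, against 3.58% and 4.99% of all genes, 8.57% together. The lower count turns on SIP2, which missed that fold on the feature counted (1.45) and passed it on the other (1.66). For 5 of the 8 the 2 groups did not overlap, against 19.6% of all genes. The members were chosen with earlier results of these data known, so these counts are a description only. The median log2 fold change was -0.05 over the 8 genes and 0.05 over all genes. In RNA of pooled organs, fewer cells of a type and less RNA per cell cannot be told apart.

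**Figure D1:**
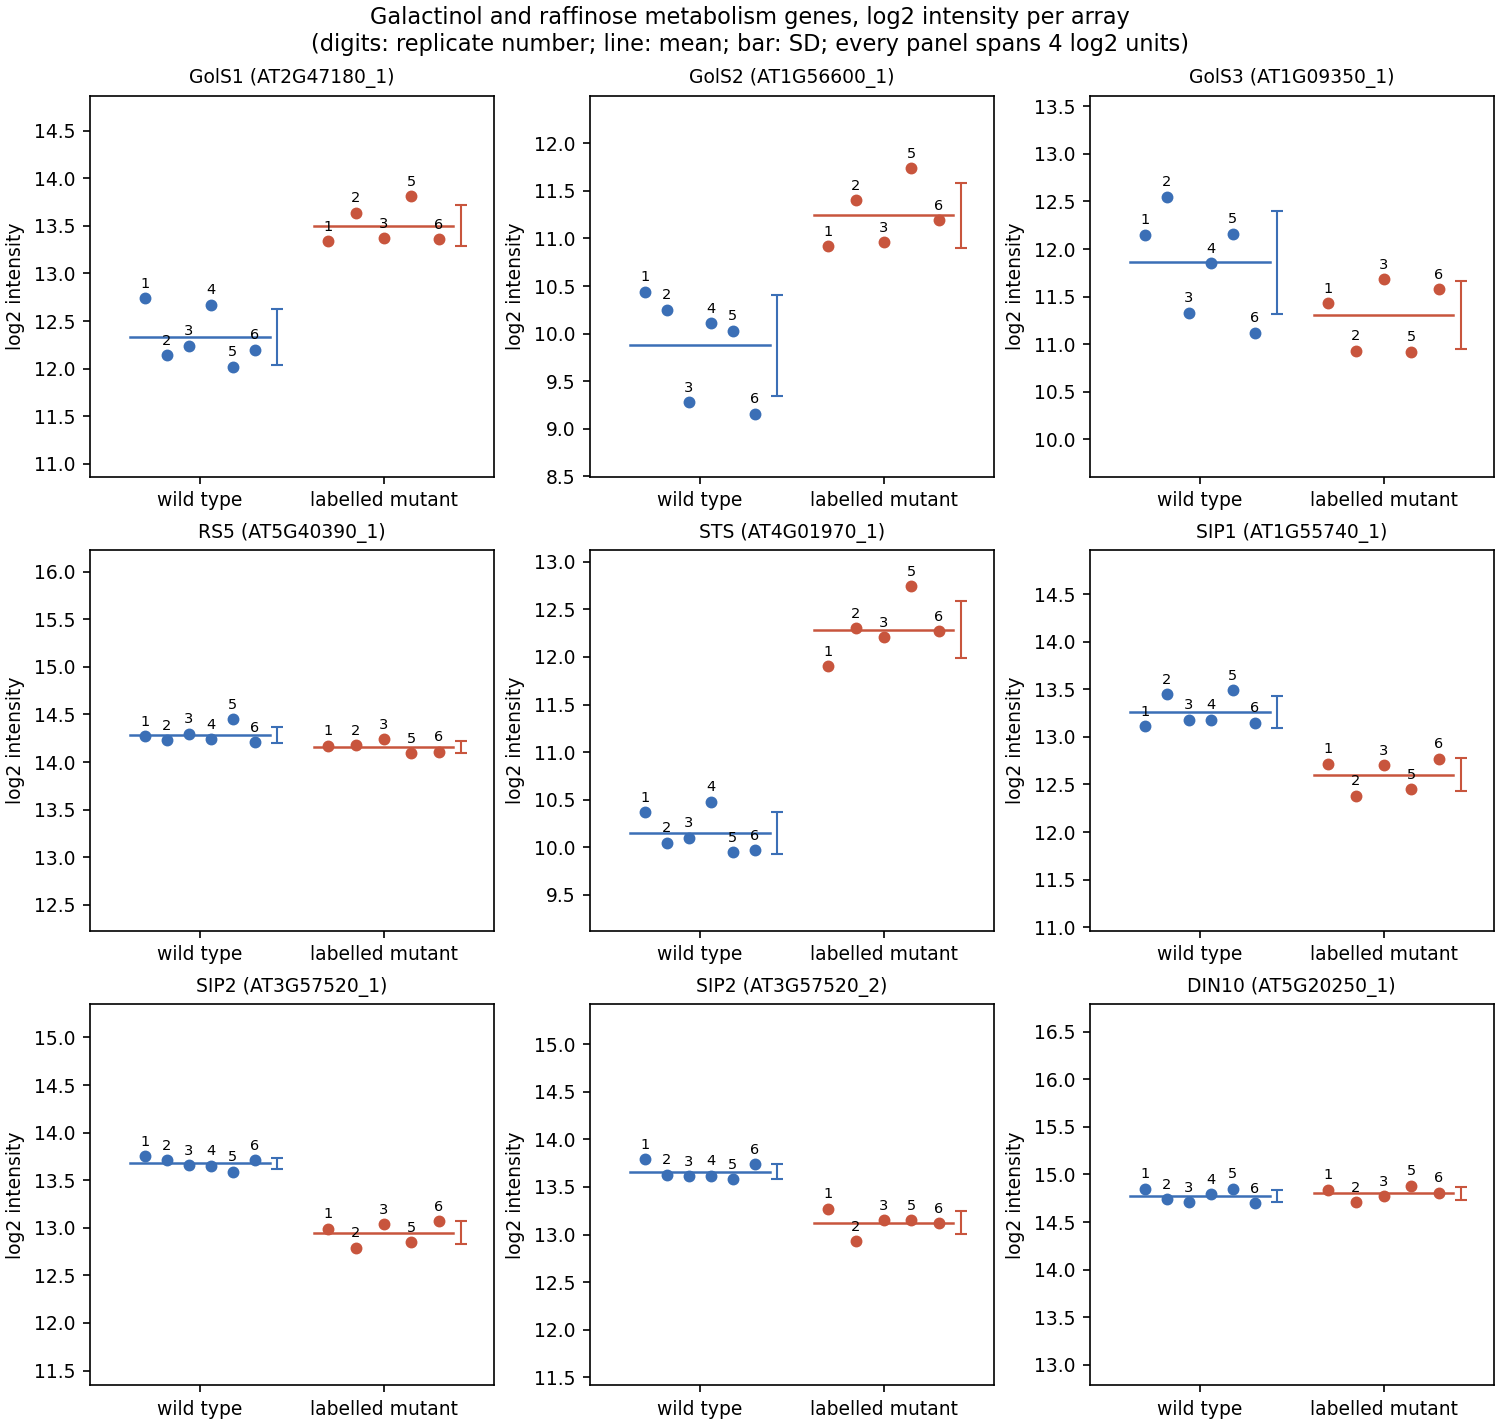
Log2 intensity (vertical axis) of the 9 features on each of 6 wild-type arrays (blue) and 5 mutant arrays (red, as labelled), with digits for replicate numbers, lines for means and bars for SD. Each panel spans the same height, so the split of STS (10.15 against 12.28) can be set beside the flat RS5 (14.28 against 14.16), while the vertical position itself is not comparable between panels.

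Galactinol synthases opened the list of rises. GolS1, known in Arabidopsis as responsive to drought and heat, had intensities from 4154 to 6832 in the 6 wild-type arrays, with a median of 4758. On mutant arrays 1, 2, 3, 5 and 6 it read 10376, 12786, 10618, 14317 and 10515. The lowest mutant array lay above the highest wild-type array, so the groups did not overlap. The log2 mean went from 12.33 ± 0.30 (SD, n = 6) to 13.50 ± 0.21 (SD, n = 5), a log2 fold change of 1.17 ± 0.14 (SE) with a limma adjusted p of 9.46e-05. Within the wild type, arrays 1 and 4 were the brightest for GolS1, at 6832 and 6509, and the other 4 lay between 4154 and 4825.

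GolS2, the second drought-responsive synthase, had wild-type intensities from 573 to 1393 with a median of 1077. Mutant arrays 1, 2, 3, 5 and 6 gave 1933, 2701, 1992, 3425 and 2339. All mutant arrays again exceeded all wild-type arrays. Its log2 fold change was 1.36 ± 0.25 (SE), with means of 9.88 ± 0.53 (SD, n = 6) and 11.24 ± 0.34 (SD, n = 5) and an adjusted p of 0.00161. Most of the wild-type spread came from arrays 3 and 6, at 620 and 573, while the other 4 lay between 1047 and 1393. Without arrays 3 and 6, an alternative chosen after seeing the data, the log2 fold change was 1.03 with an adjusted p of 0.00140.

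GolS3, the form known for its response to cold, did not rise. It ranged from 2229 to 5989 in wild type, with a median of 4123, and read 2755, 1949, 3271, 1937 and 3062 on mutant arrays 1, 2, 3, 5 and 6. The groups overlapped, and the log2 fold change was -0.56 ± 0.25 (SE, 95% interval -1.11 to 0.00, limma adjusted p 0.113). As with GolS2, wild-type arrays 3 and 6 were the lowest, at 2583 and 2229, and here they lay within the mutant range. The call therefore depends on them: without wild-type array 6 the log2 fold change was -0.70 with an adjusted p of 0.0369, and without arrays 3 and 6 together, chosen after seeing the data, it was -0.87 with an adjusted p of 0.00746. Leaving out any other single array gave adjusted p-values above the threshold.

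The group differences of GolS1 and GolS2 were set against each other on each array. The GolS1 minus GolS2 difference changed by -0.19 on the log2 scale (95% interval -0.71 to 0.34) between groups, with a two-sided exact permutation p of 0.405 over 462 splits of the arrays, and an adjusted p of 0.405 over the 3 pairs of genes compared in this way. The interval leaves room for either gene to have changed more than the other. Without probe sequences, signal shared between these related genes was not checked.

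STS and RS5 encode related enzymes and behaved differently. STS, which makes stachyose and is known from seeds, had wild-type intensities from 990 to 1432 with a median of 1079. Mutant arrays 1, 2, 3, 5 and 6 gave 3826, 5028, 4722, 6838 and 4934, and the lowest of these exceeded the highest wild-type value by a wide margin. The log2 mean went from 10.15 ± 0.22 (SD, n = 6) to 12.28 ± 0.30 (SD, n = 5), a log2 fold change of 2.13 ± 0.14 (SE, 95% interval 1.82 to 2.44) with an adjusted p of 6.09e-07. In absolute size this change exceeded that of 99.2% of all features. Wild-type arrays 1 and 4, the brightest for GolS1, were also the brightest for STS, at 1326 and 1432.

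RS5, the raffinose synthase known from stressed leaves, was bright and nearly level in both groups. It ranged from 18897 to 22312 in wild type, with a median of 19524, and read 18496, 18611, 19405, 17449 and 17660 on the mutant arrays in the same order. The groups overlapped through mutant array 3, and the log2 fold change was -0.12 ± 0.051 (SE, 95% interval -0.23 to -0.01, adjusted p 0.0902). On each array RS5 was set against STS, and the difference between these genes changed by -2.25 on the log2 scale (interval -2.67 to -1.87). The exact permutation p of 0.00216 is the smallest that 462 splits can give, and 0.00325 after adjustment over the 3 pairs. The test treats all 11 arrays as exchangeable. With arrays 3 numbers apart averaged, chosen after seeing the data, the change was -2.18 over 3 against 3 values, where 20 splits allow no two-sided exact permutation p under 0.1.

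**Figure D2:**
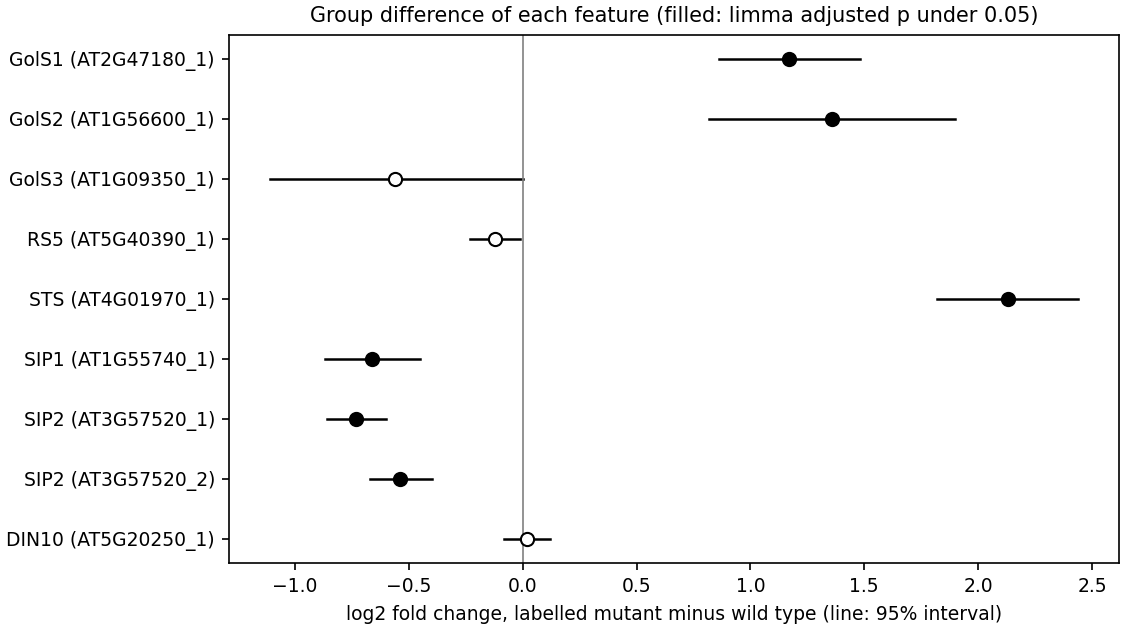
Log2 fold change (horizontal axis, labelled mutant minus wild type) of each of the 9 features with its 95% interval, filled where the limma adjusted p is under 0.05. STS, GolS2 and GolS1 lie to the right of 0, SIP1 and both SIP2 features to the left, and the open points are GolS3, RS5 and DIN10.

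Of the seed imbibition genes 2 fell, and DIN10 did not pass the test. SIP1 is named after its likeness to a seed imbibition protein. Its intensity ran from 8871 to 11485 in wild type, with a median of 9276, and was 6735, 5324, 6676, 5602 and 6984 on mutant arrays 1, 2, 3, 5 and 6. All mutant values lay below all wild-type values. The log2 fold change was -0.66 ± 0.10 (SE, means 13.26 ± 0.16 and 12.60 ± 0.18, SD, n = 6 and 5), with a limma adjusted p of 3.58e-04. Wild-type arrays 2 and 5 were highest, at 11186 and 11485, against 8871 to 9284 for the other 4.

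SIP2, known in Arabidopsis as an alkaline alpha-galactosidase acting on raffinose, was read by 2 features. The first ranged from 12372 to 13820 in wild type (median 13150) and gave 8159, 7095, 8407, 7387 and 8601 in the mutant. The second ranged from 12253 to 14205 (median 12603) and gave 9852, 7811, 9104, 9105 and 8921. On both, each mutant array lay below each wild-type array. Their log2 fold changes were -0.73 ± 0.058 (adjusted p 2.58e-06) and -0.54 ± 0.063 (SE, adjusted p 6.95e-05). The wild-type spread was small, with SDs of 0.06 and 0.09 on the log2 scale (n = 6).

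DIN10, a dark-inducible gene grouped with raffinose synthases (synonym RS6), ranged from 26691 to 29572 in wild type with a median of 27928. The mutant arrays gave 29236, 26825, 27860, 30052 and 28715, so that the groups lay over each other. Its log2 fold change was 0.02 ± 0.046 (SE, 95% interval -0.08 to 0.12, adjusted p 0.726). Relative to SIP2 (its second feature), DIN10 rose by 0.56 on the log2 scale (interval 0.43 to 0.69, exact permutation p 0.00216, adjusted over the 3 pairs 0.00325), and by 0.54 with arrays 3 numbers apart averaged, where the same limit on p holds.

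Several members moved together from array to array within a group. On mutant arrays 2 and 5, GolS1, GolS2 and STS reached their 2 highest values, while GolS3, SIP1 and the first SIP2 feature were at their 2 lowest. Relative to the wild-type mean, for example, GolS2 stood at 1.52 and 1.86 on arrays 2 and 5 and at 1.04 to 1.31 on the other 3. GolS3 stood at -0.93 and -0.94 there and at -0.43 to -0.19 elsewhere in the mutant. RS5 and DIN10 showed no such order on these arrays. Over all features, deviations of mutant arrays 2 and 5 correlated at -0.63 to -0.20 with those of arrays 1, 3 and 6, and at 0.07 with each other. As given above, such correlations within a group are negative on average. Whether the order is more common among the members than among other genes was not tested. Without mutant arrays 2 and 5, an alternative chosen after seeing the data, log2 fold changes were 1.97 for STS, 1.03 for GolS1, 1.14 for GolS2 (adjusted p 0.0182) and -0.53 for SIP1, and each of these calls held. In the wild type the pairs differed from gene to gene. Arrays 1 and 4 were highest for GolS1 and STS, 2 and 5 for SIP1, and 3 and 6 lowest for GolS2 and GolS3. The largest difference within such a pair was 0.12 for GolS1, 0.13 for STS and 0.06 for SIP1, on the log2 scale, while the means of the 3 pairs spanned 0.62, 0.43 and 0.32. For GolS2 and GolS3 these differences reached 0.33 and 0.39, against spans of 1.06 and 1.13. RS5 and SIP2 showed no such pairing: the largest difference within a pair was 0.21 for RS5 and 0.11 and 0.18 for the SIP2 features, against spans of 0.09, 0.05 and 0.10. For DIN10 the largest difference, 0.11, was close to the span of 0.12, and arrays 3 and 6 were lowest, at 26802 and 26691.

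**Figure D3:**
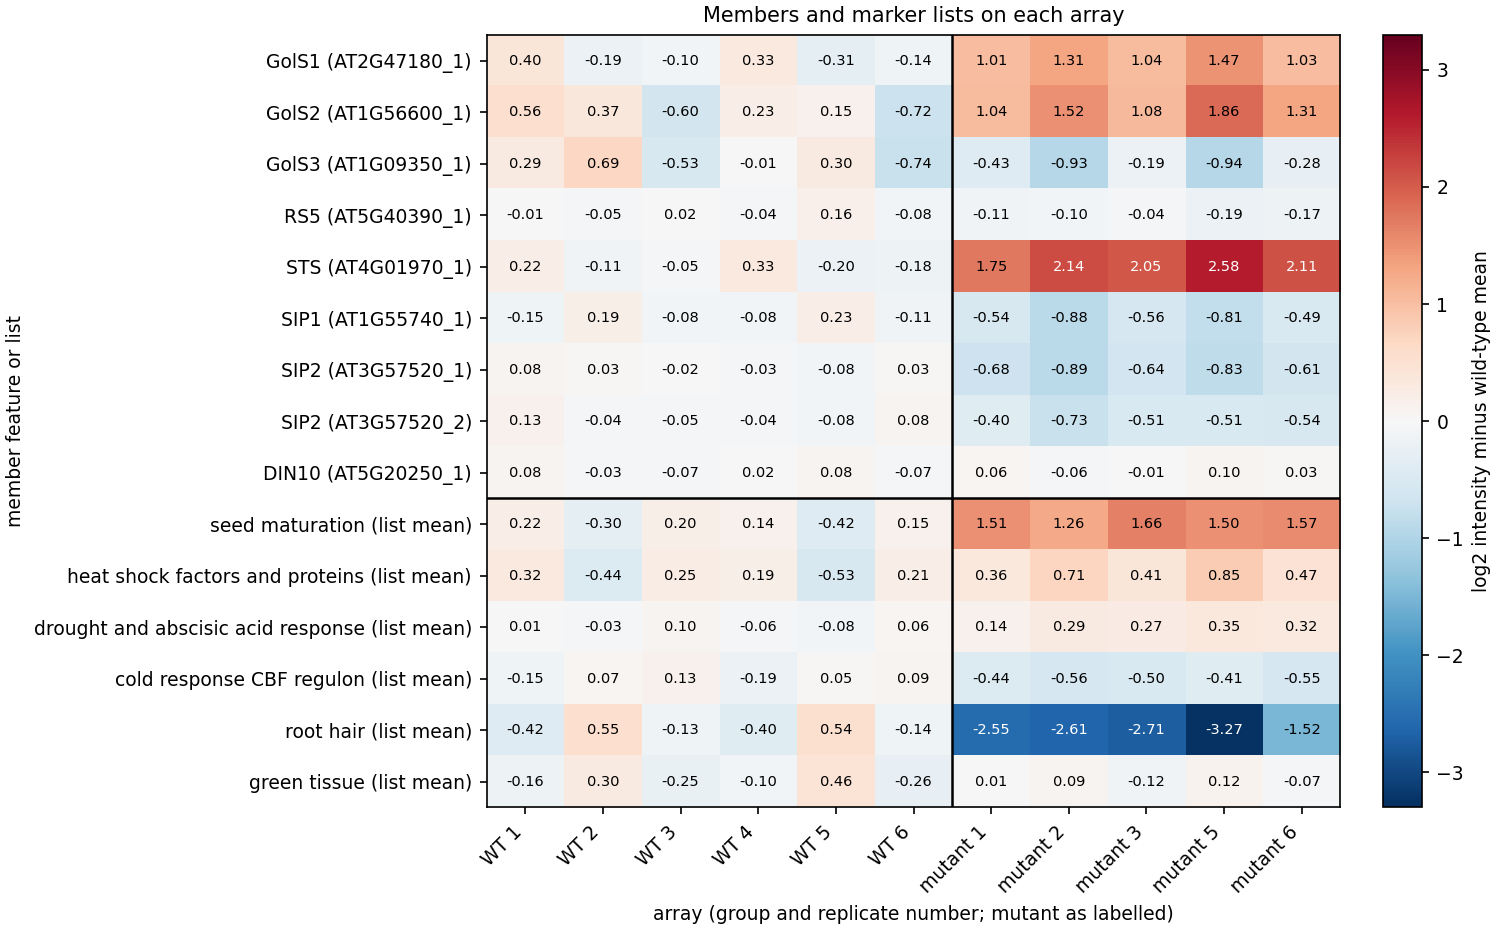
Log2 intensity minus the wild-type mean (colour and printed values) for the 9 features and the means of 6 gene lists (rows) on each array (columns, mutant as labelled). STS, GolS1 and GolS2 are positive on each mutant array and highest on mutant array 5. Among mutant arrays, the heat shock list mean is highest on 5 and 2, at 0.85 and 0.71. So is the green tissue list mean, at 0.12 and 0.09, while that of seed maturation is highest on array 3, at 1.66.

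Further genes around the pathway were described by 6 lists. Of 49 genes around galactinol, inositol, UDP-galactose, alpha-galactosidases, sucrose and dark-induced sugar starvation, 12 were higher, 9 lower and 28 not called, with a median log2 fold change of -0.01. Both shares lie somewhat above the background, in which 19.4% of all genes were higher and 13.1% lower, and were not tested as a set. Among 7 other entries of the galactinol synthase family 5 were higher and 0 lower, with a median of 0.32. GolS10 rose by 1.10 ± 0.12 (SE, adjusted p 2.72e-05) and GolS6 by 0.32 ± 0.056 (adjusted p 0.00123). In wild type 4 of these 7 lay in the dimmest 25% of features, and these 4, GolS4, GolS5, GolS6 and GolS10, were all among the 5 called. With the dimmest 25% of features left out 2 of the list were called, and with a fold of at least 1.5 required 1 was called, GolS10. The fifth call, GATL4 (synonym GolS9), is named in the gene table after galacturonosyltransferase-like proteins.

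Calls among genes that supply or use the substrates were few, in shares near the background. Of 10 genes of myo-inositol synthesis and oxidation 1 rose and 2 fell. MIPS2, a myo-inositol phosphate synthase, rose by 0.32 ± 0.082 (SE, adjusted p 0.0123), a call that ended without mutant arrays 2 and 5 (chosen after seeing the data). MIOX2, an oxygenase that consumes myo-inositol, changed by -0.48 ± 0.078 (adjusted p 7.66e-04). MIOX1 fell by 0.30 on the log2 scale, with an adjusted p of 0.0484 that rose above the threshold in 8 of 11 fits without 1 array. Of 6 measured genes of UDP-galactose supply, the epimerase genes UGE1 and UGE2 went opposite ways, at 0.13 (adjusted p 0.0389) and -0.39 (adjusted p 6.31e-04). The galactokinase gene GALK changed by -0.16 (adjusted p 0.00917). The UGE1 call ended in 8 of the 11 fits without 1 array, and with arrays 3 numbers apart averaged both UGE1 (adjusted p 0.115) and GALK (adjusted p 0.0610) missed the threshold. None of the 3 alpha-galactosidase genes AGAL1, AGAL2 and AT3G56310 was called by limma at this threshold, with log2 fold changes from -0.28 to -0.01. AGAL2 had the lowest adjusted p, 0.0506, and was the 1 gene of these 3 with an unadjusted p below 0.05 (0.0165). Under several other settings, array weights and trended variance among them, 1 of the 3 was called lower.

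Of 16 genes of sucrose synthesis and cleavage 4 rose and 4 fell, where 19.4% of all genes were higher and 13.1% lower. The sucrose synthase gene SUS6 rose by 0.73 ± 0.11 (SE, adjusted p 3.47e-04) and the sucrose phosphate synthase gene SPS3F by 0.28 ± 0.056 (adjusted p 0.00263). The sucrose-phosphatase gene SPP1 changed by -1.22 ± 0.21 (adjusted p 0.00110), and AT3G54270 by -0.36 ± 0.058 (adjusted p 8.14e-04). With arrays 3 numbers apart averaged, 2 of the 4 falls were still called. Of 7 further dark-inducible genes, DIN11, in the dimmest 25% in wild type, rose by 1.21 ± 0.22 (adjusted p 0.00196) and SEN1 changed by -0.33 ± 0.054 (adjusted p 7.85e-04), and like DIN10 the other 5 were not called.

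**Figure D4:**
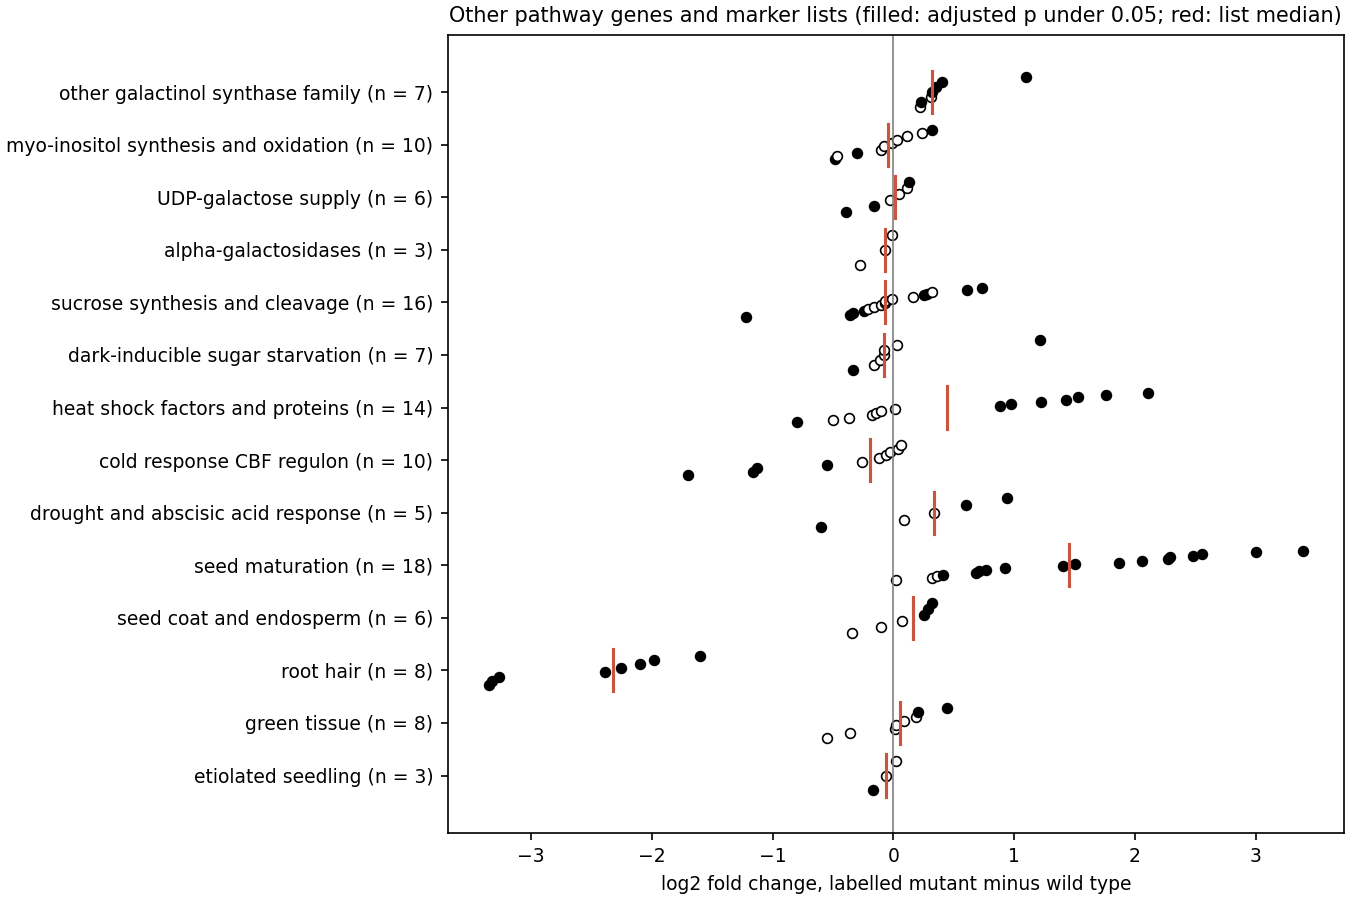
Log2 fold change (horizontal axis, labelled mutant minus wild type) of each measured gene in the 14 lists, filled where the limma adjusted p is under 0.05, with the list median in red. Medians run from -2.32 for root hair genes to 1.45 for seed maturation genes, while those of the 6 metabolic lists at the top lie between -0.08 and 0.32.

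Genes of cold, heat and drought responses were described beside the members. In the cold list 4 of 10 genes fell and 0 rose. The cold regulator DREB1A (CBF3), which raises GolS3 when overproduced, changed by -1.70 ± 0.20 (SE, adjusted p 7.67e-05) and its target COR47 by -0.55 ± 0.067 (adjusted p 8.89e-05). CBF1 and CBF2, related regulators named after their values were seen, were also lower, with log2 fold changes of -1.16 and -1.13. No other gene of the list was called. Their log2 fold changes were -0.26 for RHL41, -0.12 for ERD10, -0.06 for KIN2 and 0.06 for LTI78. COR15A (0.04) and KIN1 (-0.03) were dim, with wild-type log2 means of 7.43 and 8.62. The median log2 fold change of the list was -0.19, so its mean rests largely on the 4 genes that fell. The list mean relative to wild type was -0.56 to -0.41 on mutant arrays and -0.19 to 0.13 on wild-type arrays. Unlike GolS3, it was not lowest on wild-type arrays 3 and 6, at 0.13 and 0.09. A part of these regulators in the values of GolS3 was not tested.

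In the heat list 7 of 14 genes rose and 1 fell. HSFA9, a heat shock factor known from maturing seeds, rose from the dimmest 25% of features by 2.11 ± 0.16 (SE, adjusted p 1.61e-06), and the small heat shock protein gene HSP17.6A rose by 1.76 ± 0.28 (adjusted p 6.05e-04). HSFA2, a factor induced by heat and known to raise GolS1, changed by -0.80 ± 0.21 (adjusted p 0.0143), a call that ended with arrays 3 numbers apart averaged (adjusted p 0.0802) and without wild-type arrays 1 and 4 (adjusted p 0.0641, chosen after seeing the data). The heat list mean was lowest on wild-type arrays 2 and 5 (-0.44 and -0.53), stood at 0.19 to 0.32 on the other wild-type arrays and at 0.36 to 0.85 on mutant arrays. Without wild-type arrays 2 and 5, chosen after seeing the data, 6 heat genes rose and 4 fell, while GolS1 rose by 1.05 and STS by 2.05. In the list of drought and abscisic acid response 2 of 5 rose, RAB18 by 0.94 ± 0.15 and LTI65 by 0.60 ± 0.10, whereas the regulator gene DREB2A changed by -0.60 ± 0.12 (SE, adjusted p 6.57e-04, 6.71e-04 and 0.00315).

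Markers of seed maturation and of root hairs differed between the groups beside the members. Of 18 seed maturation genes 15 rose and 0 fell, with a median of 1.45. The late embryogenesis genes GEA6 and M10 rose by 2.48 ± 0.15 and 1.87 ± 0.11 (SE, adjusted p 1.99e-07 and 2.34e-07). The summed intensity of the 18 genes ran from 94690 to 135124 in wild type and from 218247 to 259472 in the mutant. Of the 18, 1 gene, SESA1, lay in the dimmest 25% of features in wild type. The list mean relative to wild type ran from 1.26 to 1.66 on mutant arrays and from -0.42 to 0.22 on wild-type arrays. Of 6 seed coat and endosperm genes 3 rose, MAN7 by 0.25, EPR1 by 0.29 and BAN, in the dimmest 25% in wild type, by 0.32. TT10 (-0.34), MUM4 (-0.10) and TT12 (0.07) were not called. Sums over the list, to which dim genes such as BAN add little, were 51556 to 56347 in wild type and 56146 to 59968 in the mutant. All 8 root hair genes fell, with a median log2 fold change of -2.32, among them RHS12 (-3.35) and RSL4 (-2.25). Their sums ran from 42974 to 76002 in wild type and from 5894 to 25548 in the mutant. Of 8 green tissue genes RBCS1B (0.44) and LHCB4.1 (0.20) rose, where 19.4% of all genes were higher. These calls ended in 9 and 8 of the 11 fits without 1 array. The 6 not called ran from -0.55 for LHCB2.1 (limma adjusted p 0.0543) to 0.19 for CAB1. Under some other settings, array weights among them, 1 of the 8 was called lower. Sums over the list were 113530 to 143157 in wild type and 124633 to 135514 in the mutant. PHYA changed by -0.17, a call that ended in 8 of the 11 fits without 1 array. A part of any of these tissues in the members' values was not tested.

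The transcripts nearest to the risen members were listed. Likeness was measured as the root mean square difference of log2 values, each centred on its own wild-type mean, over the 11 arrays. Nearest to STS were AT1G17010 (0.130), AT5G04500 (0.138) and AT2G27940 (0.139), against a median of 1.43 over all other genes. Nearest to GolS1 were the cyclic nucleotide-gated channel gene CNGC19 (0.169), AT5G45310 (0.170) and AT4G13790 (0.172), against a median of 0.801. Nearest to GolS2 were AT1G50280 (0.202), AT3G49970 (0.235) and AT4G19050 (0.246), against 0.987. Among the members themselves GolS1 and GolS2 were 0.361 apart, STS was 0.656 from GolS1 and 0.607 from GolS2, and GolS3 was 1.28 from GolS1. Centring on the wild-type mean keeps the group difference in this distance. Because these genes were picked as the nearest of all other loci, their distances and fold changes, 1.00 to 2.23, are a description only.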

How the data were processed

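Each deposited array file holds 1 linear intensity per feature. The submitters' processing notes name RMA, a method that usually includes background correction, between-array normalization and probe summary. Which settings, genome build and probes were used is not given in the sources used here. Array medians lay between 3775.6 and 3909.2, so levels are relative to other genes. A separate value table differed by 0 from the array files.

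Symbols come from RefSeq's TAIR10.1 table, which lists 31993 of the 32627 loci. Members and lists (122 genes in 14 lists, 121 measured) were chosen with earlier results of these data known. Log2 intensity was fitted in limma 3.58.1 (R 4.3.3, lmFit and eBayes, all features, no covariate), with Benjamini-Hochberg adjustment. Genes were counted by their feature of highest mean. All members were described. Per list, up to 2 higher and 2 lower genes of lowest p were named, and for members with an absolute log2 fold change of at least 1, the 3 nearest other loci. Pairs of members were tested by exact permutation, with intervals by inverting that test. The fit was tested on simulated data. Alternatives were normalization, dim-feature filters, variance models, array weights, a replicate block, averaging or leaving out arrays, thresholds and a pseudocount of 16. The number of arrays limits the precision. Columns of other samples numbered 0.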

Additional observations from a re-analysis of the deposited data

Results flagged for a closer look

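Of all values, 3 stood far from the rest of their group among 100 groups of 5 or 6 arrays examined, where chance gives about 1 in 20. For UGE2, the UDP-galactose epimerase gene, wild-type array 2 read 12.56 (log2 intensity) with the next at 12.38, and mutant array 5 read 12.23 with the next at 11.98. For the seed coat gene BAN, wild-type array 1 read 7.92 with the next at 7.81. No feature of the 8 members was among them.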

How the results depend on the processing

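Of 249 alternative values of the 9 member features, 247 kept their direction or, where not called, stayed so, and the 2 exceptions were the gains of a call for GolS3 described above. Without 1 array in turn, 3 members were higher throughout and 2 to 3 lower, 10 to 14 pathway genes were higher and 7 to 11 lower, and over the array, where 6989 features were higher and 5044 lower with all arrays, 5124 to 7086 features were higher and 4225 to 5010 lower. The GolS1 minus GolS2 difference then ran from -0.30 to -0.08, RS5 minus STS from -2.35 to -2.12 and DIN10 minus SIP2 from 0.53 to 0.59. With the dimmest 50% of features left out, which removes GolS2, GolS3 and STS from the test, 1 member and 7 pathway genes were higher, and 3067 features were higher and 2613 lower. An added fold of at least 1.5 left 1 member lower, 4 pathway genes higher and 1 lower, with 1264 and 1858 features. That member was SIP1, since the SIP2 feature counted changed 1.45-fold. A threshold of 0.01 gave 3302 and 3179 features. With arrays 3 numbers apart averaged, and so fewer arrays, 3938 and 3236 features and 5 lower pathway genes were called, and GolS2 kept its call (1.31, adjusted p 0.0351). In that averaging the exact permutation tests, with 20 splits, gave -0.16, -2.18 and 0.54 for the 3 pairs (adjusted p 0.7, 0.15 and 0.15), where the smallest two-sided p is 0.1. Without mutant arrays 2 and 5, added after seeing the data, 4321 features were higher. Higher features made up 58.1% of calls, and 54.5% to 62.8% under other scalings.

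Same-numbered arrays of the 2 groups lie at consecutive chip positions, such as A01 and A02 for number 1. Their deviations correlated at -0.06 to 0.29, and 2 of 10 arrays correlated best with their own number. So few pairs cannot decide whether replicate numbers pair the arrays. With the replicate number as a block, which ended the calls of HSFA2 (adjusted p 0.0546), MIOX1, UGE1, RBCS1B and PHYA and called 1 alpha-galactosidase gene lower, 3 members were higher and 2 lower, and 5505 and 4226 features were called. Signal near the bottom of the scale limits GolS4, GolS5, GolS6, GolS10, DIN11, HSFA9 and BAN.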
